A study of Oryza sativa with 8 samples.

Results

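Brassinosteroids are plant steroid hormones that promote cell elongation. In rice they shape leaf angle and the growth of seedling organs, and plants that cannot make or perceive them are dwarfed. The hormone is made from plant sterols by a chain of oxidising enzymes, most of them cytochromes P450. At the cell surface it is bound by the receptor kinase BRI1, and the signal reaches transcription factors of the BZR1 type, which feed back to lower the transcription of synthesis genes.

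The transcripts described here are 9 brassinosteroid genes of the 55801 loci in the deposited table, chosen by locus identifier. They are the synthesis genes CYP90B2 (LOC_Os03g12660), D11 (LOC_Os04g39430), D2 (LOC_Os01g10040), CYP90D3 (LOC_Os05g11130), BRD1 (LOC_Os03g40540) and BRD2 (LOC_Os10g25780), the receptor BRI1 (LOC_Os01g52050), the factor BZR1 (LOC_Os07g39220), and LOC_Os07g04410, which the table annotates as cytochrome P450 90C1. The table calls D2, D11, BRD1, CYP90B2 and CYP90D3 only a putative cytochrome P450, BRD2 an FAD-linked oxidoreductase, BZR1 a BES1/BZR1 homolog, and BRI1 a systemin receptor SR160 precursor, the name under which the tomato BRI1 protein was also described. All 9 were tested, as were 21014 loci in all whose mean of the 8 libraries reached 1 FPKM, and 7 of the 9 averaged 5 FPKM or more.

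The libraries came from wild-type seedlings of the cultivar Nipponbare, raised at 28 °C under constant white light after 24 h in water at 37 °C. The 4 groups, with 2 libraries each, were first leaves of seedlings 3 days old after 1 h of simulated shade, first leaves of that age kept in white light, coleoptiles of seedlings 2 days old after 1 h of shade, and coleoptiles of that age kept in white light. Shade was LED light with red at 16, blue at 1.3 and far-red at 48 µE per square metre per second. The coleoptile is the sheath around the young grass shoot, and it was harvested a day earlier than the leaf, so tissue and age cannot be told apart. No label says that replicates were separate cultures, so the p-values rest on the spread of these libraries alone, and that spread may be technical.

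Levels are the authors' FPKM (fragments per kilobase of transcript, scaled by the mapped fragments), which can be compared between genes because they are per length. The number of fragments behind each value is unknown. All 21 loci annotated as chlorophyll a-b binding proteins or the small subunit of ribulose bisphosphate carboxylase, markers of green tissue, were above 1 FPKM in every library. They summed to between 35598 and 46002 FPKM in first leaves and between 15957 and 26005 FPKM in coleoptiles. Of 53 seed storage and alpha-amylase loci, 3 to 5 per library were above 1 FPKM and 39 to 45 were listed at 0. The white light coleoptile replicates stood further apart than those of any other group, at r = 0.914 across tested loci, against 0.975 to 0.982 in the other 3 groups. Their 105 WRKY loci, a stress-related family, summed to 2617 FPKM in replicate 1 and 1127 FPKM in replicate 2.

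Differences below are in log2(FPKM + 1) with limma's standard error (SE), from 1 fit to the 4 groups, and a call means a p under 0.05 after Benjamini-Hochberg adjustment over all 21014 loci. Leaving out a white light coleoptile replicate raised the calls over all loci, so a call gained by it is not particular to a gene. For shade in coleoptiles they were 232 without replicate 1 and 1739 without replicate 2, against 9 with all libraries. For the average of both tissues they were 387 and 1362, against 6, and for the difference of responses 52 and 887, against 4. For shade in first leaves they were 51 in each, against 0. For first leaf against coleoptile they were 3804 and 4022 in white light, against 2303, and 4259 and 4227 in shade, against 2164.

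Because RNA was taken from whole organs, fewer cells with a transcript and less transcript per cell cannot be told apart.

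Among the 9 genes, only D2 had 4 groups that all stood apart. It encodes CYP90D2, a P450 of the synthesis route, and mutants without it are dwarfs. D2 stood at 23.1 and 22.0 FPKM in shaded first leaves and at 14.3 and 13.1 FPKM in first leaves kept in white light. It stood at 77.6 and 57.7 FPKM in shaded coleoptiles and at 40.3 and 50.3 FPKM in white light coleoptiles. The 4 groups did not overlap, the order from high to low being shaded coleoptile, white light coleoptile, shaded first leaf and white light first leaf. The share of all loci with 4 such groups was not counted. The share with tissues that do not overlap is not given here, so non-overlap between tissues is only a description. For shade alone, 21.3% of loci were higher without overlap in first leaves and 17.3% in coleoptiles.

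Between tissues, D2 was called. It was lower in first leaves than in coleoptiles by a log2 difference of -1.53 ± 0.20 (SE) in shade (limma adjusted p = 0.00454) and -1.65 ± 0.20 in white light (limma adjusted p = 0.00322). Green tissue markers were also higher in first leaves, as given above, and their part in these differences was not tested. The D2 call held in each fit that left out 1 library and under every other setting tried, with adjusted p from 0.00128 to 0.0441 in shade and from 0.00190 to 0.0411 in white light.

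Between light treatments, D2 did not pass. The shade difference was 0.68 ± 0.20 in first leaves (limma adjusted p = 0.601) and 0.56 ± 0.20 in coleoptiles (limma adjusted p = 0.374). The responses of the leaf and the coleoptile differed by 0.12 (95% interval -0.54 to 0.78; limma adjusted p = 1.00). Averaged over both tissues the shade difference was 0.62 ± 0.14, with limma adjusted p = 0.203. It was not called under any alternative other than leaving out 1 library. In the fits that left out 1 library it ran from 0.52 to 0.73, and without coleoptile white light replicate 2 it was 0.70.

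BRI1, the receptor kinase, also had higher values in both shaded libraries than in both white light libraries of each tissue. Its levels were 30.6 and 30.01 FPKM in shaded first leaves and 23.2 and 18.6 FPKM in white light first leaves. In coleoptiles they were 21.7 and 21.2 FPKM in shade and 16.3 and 16.6 FPKM in white light. Shaded first leaves were highest and white light coleoptiles lowest, while shaded coleoptiles and white light first leaves overlapped. The difference was 0.52 ± 0.16 in first leaves (limma adjusted p = 0.655), 0.36 ± 0.16 in coleoptiles (limma adjusted p = 0.525) and 0.44 ± 0.11 averaged over both (limma adjusted p = 0.260), so BRI1 was not called. Nor was it called between tissues, where the difference of first leaf and coleoptile was 0.48 ± 0.16 in shade (adjusted p = 0.116) and 0.32 ± 0.16 in white light (adjusted p = 0.277).

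D2 and BRI1 were the 2 of the 9 genes higher in shade without overlap in both tissues, as were 5.84% of all tested loci. None of the 9 was lower in shade without overlap in both, as were 3.73% of loci. LOC_Os07g04410 also had no overlap in either tissue, but with opposite signs.

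**Figure D1:**
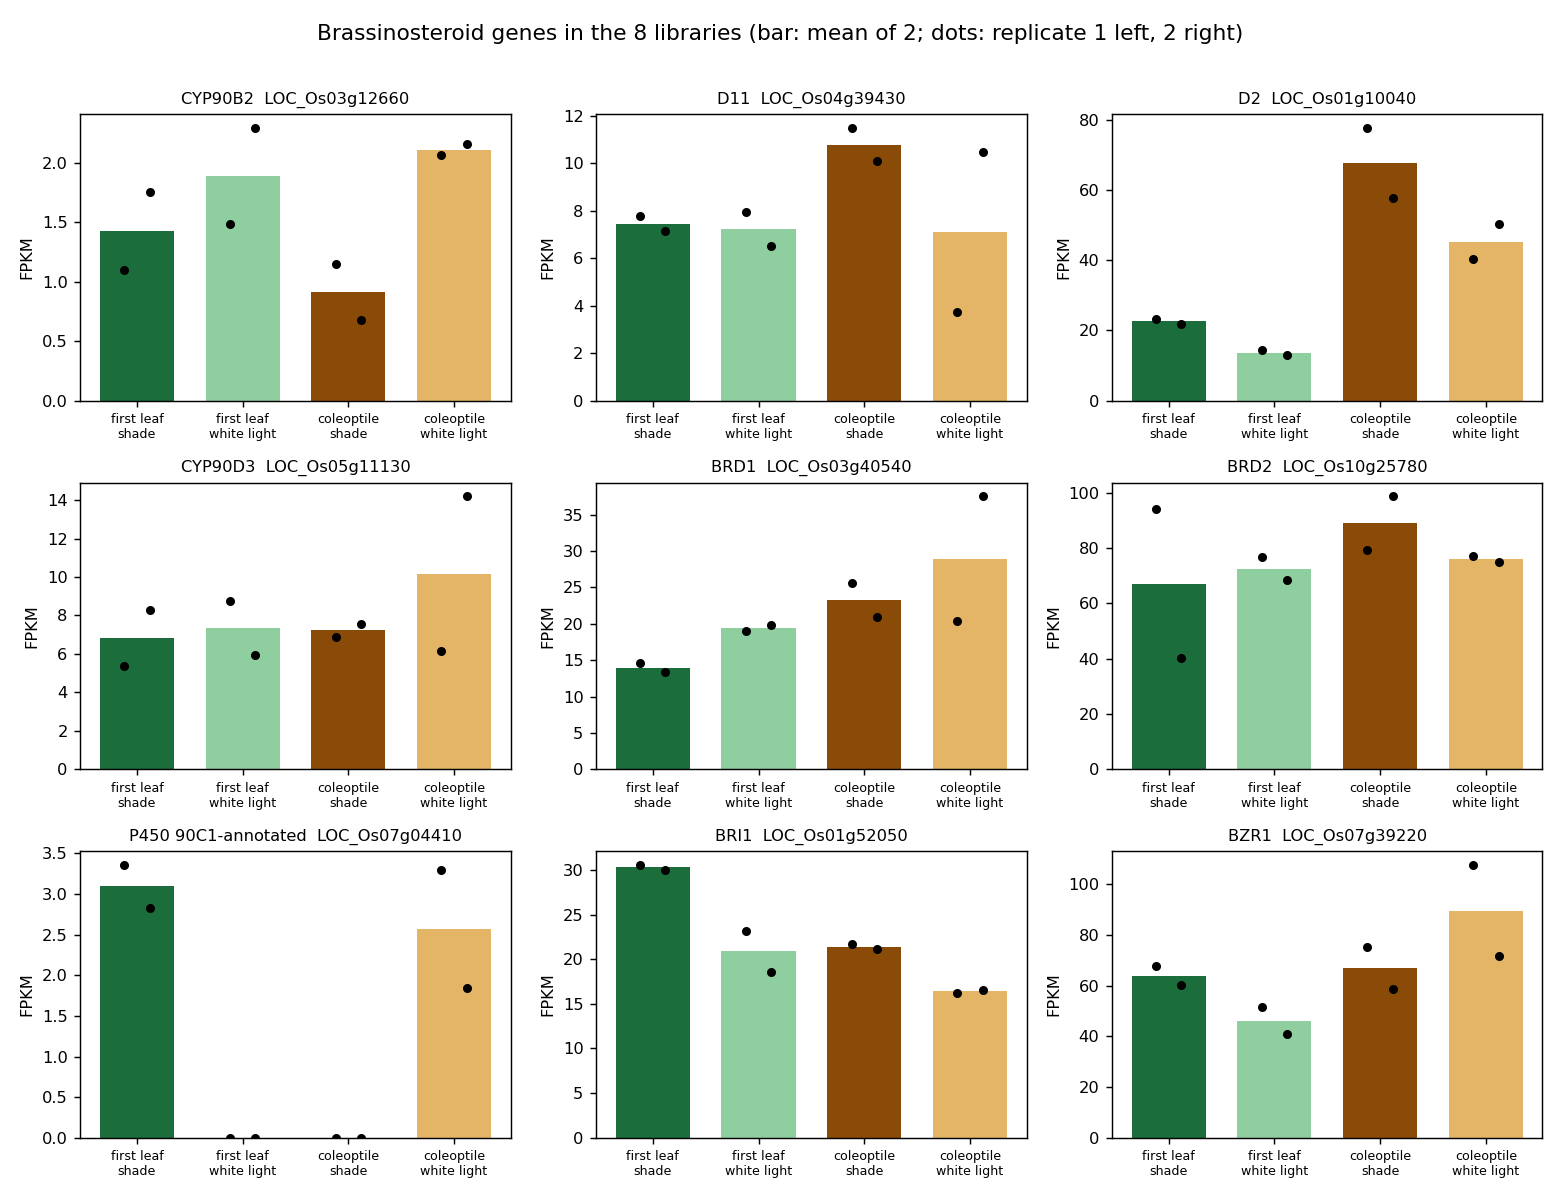
FPKM of the 9 brassinosteroid genes (vertical axes, 1 scale per panel) in the 4 groups, with bars for the mean of 2 libraries and dots for the libraries. D2 has no overlap between groups, with 14.3 and 13.1 FPKM in white light first leaves the lowest and 77.6 and 57.7 FPKM in shaded coleoptiles the highest, and LOC_Os07g04410 is listed at 0 in white light first leaves and in shaded coleoptiles.

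LOC_Os07g04410 had opposite values in the leaf and the coleoptile. Its annotation is that of the Arabidopsis P450 CYP90C1, known as ROTUNDIFOLIA3, which acts on the side chain of brassinosteroid precursors. Whether this rice locus encodes an enzyme of that activity is not given in the table. Shaded first leaves had 3.36 and 2.83 FPKM of it, while both libraries of white light first leaves listed it at 0. Both libraries of shaded coleoptiles listed it at 0, and white light coleoptiles had 3.29 and 1.85 FPKM. The groups with and without the transcript did not overlap, and the tissue with the transcript differed between the lights.

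Its shade difference was positive in first leaves (limma adjusted p = 0.0943) and negative in coleoptiles (limma adjusted p = 0.121). The test of the difference between the 2 responses gave limma adjusted p = 0.0656, the 5th smallest p of all loci, where 0.0190% of loci were called. These values missed the threshold, and the call depended on the settings. Without coleoptile white light replicate 1 the adjusted p was 0.0237 in first leaves, 0.0485 in coleoptiles and 0.0173 for the difference, and without replicate 2 it was 0.0219, 0.00325 and 0.00285. In those fits 1 white light coleoptile library is assumed to vary like the other groups. The difference was also called with no filter (adjusted p = 0.0254), with equal medians (adjusted p = 0.0363) and with quantile normalization (adjusted p = 0.0343). It was not called with a pseudocount of 0.1 (limma adjusted p = 0.103) or with a replicate block, where 0 of all loci were called. The shade difference within a tissue was not called under any alternative other than leaving out 1 library.

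Between tissues LOC_Os07g04410 was called in both lights and in opposite directions. It was higher in shaded first leaves than in shaded coleoptiles (limma adjusted p = 0.00488) and lower in white light first leaves than in white light coleoptiles (limma adjusted p = 0.00706). These comparisons use the same 8 libraries as the shade comparisons. The locus passed the filter only through the groups where it was above 0. The groups listed at 0 show no spread between replicates, which lowers the shared spread behind these p-values and those for shade. The white light call ended without white light first leaf replicate 1 (adjusted p = 0.0542) or replicate 2 (adjusted p = 0.0515), and in a fit to the white light groups only (adjusted p = 0.0660).

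No fold is given for a group listed at 0. The fitted difference depends on the pseudocount: in first leaves it was 2.03 with a pseudocount of 1 and 4.99 with 0.1. In coleoptiles it was -1.81 with a pseudocount of 1 and -4.68 with 0.1. A value of exactly 0 in this table can be a failed estimate. The locus has a mean under 5 FPKM and drops out under that filter.

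The pattern was counted with bounds set after the values of LOC_Os07g04410 were known, so the count is only a description. Of 55801 loci, 2 were at 1 FPKM or more in all 4 libraries of the shaded first leaf and the white light coleoptile and at 0 in the other 4. They were LOC_Os07g04410 and LOC_Os04g54610, annotated as an expressed protein. The 55801 loci include 22903 listed at 0 in every library, which could not meet the bounds. No locus met these bounds for both shade groups, for both white light groups, or for the white light first leaf with the shaded coleoptile. For the tissues themselves, 11 loci met them for both first leaf groups and 17 for both coleoptile groups.

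The enzymes at the head of the route, CYP90B2 and D11, add the first hydroxyl group to the sterol side chain and can stand in for each other in rice. CYP90B2 was the lowest of the named synthesis genes. It stood at 1.10 and 1.76 FPKM in shaded first leaves and at 1.48 and 2.30 FPKM in white light first leaves, which overlapped. In coleoptiles it stood at 1.15 and 0.683 FPKM in shade, below the 2.06 and 2.16 FPKM in white light (log2 difference -0.71 ± 0.27, limma adjusted p = 0.420).

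D11 was at 7.78 and 7.13 FPKM in shaded first leaves and at 7.96 and 6.50 FPKM in white light first leaves, a log2 difference of 0.04 ± 0.38 (limma adjusted p = 1.00). Coleoptiles had 11.5 and 10.1 FPKM of it in shade and 3.72 and 10.4 FPKM in white light. White light replicate 1 lay far below the shaded ones and replicate 2 between them. The coleoptile difference was 0.68 ± 0.38 (limma adjusted p = 0.674) with all libraries, 0.04 without white light replicate 1, and 1.32 (limma adjusted p = 0.0105) without replicate 2. Without replicate 2 the average over both tissues (0.68, limma adjusted p = 0.0319), the difference of responses (-1.27, limma adjusted p = 0.0490) and the white light difference of first leaf and coleoptile (0.80, limma adjusted p = 0.0380) were also called for D11, in the fit with more calls over all loci described above.

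CYP90D3, the closest named relative of D2 in the list, did not follow it. It was at 5.37 and 8.28 FPKM in shaded first leaves, 8.76 and 5.94 FPKM in white light first leaves, 6.90 and 7.54 FPKM in shaded coleoptiles and 6.16 and 14.2 FPKM in white light coleoptiles. Every pair of groups overlapped. The shade difference was -0.34 ± 0.38 in coleoptiles and -0.10 ± 0.38 in first leaves, the second of which turned to 0.035 with equal medians.

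BRD1 encodes the P450 that oxidises the steroid ring at the end of the route and yields castasterone, the main active brassinosteroid of rice. It stood at 14.6 and 13.3 FPKM in shaded first leaves, below the 19.0 and 19.9 FPKM in white light first leaves (log2 difference -0.45 ± 0.28, limma adjusted p = 1.00). In coleoptiles it stood at 25.6 and 20.9 FPKM in shade and at 20.4 and 37.5 FPKM in white light, which overlapped (-0.25 ± 0.28, limma adjusted p = 0.931). First leaves were below coleoptiles without overlap, by a log2 difference of -0.69 ± 0.28 in shade (limma adjusted p = 0.176) and of -0.49 ± 0.28 in white light (limma adjusted p = 0.336). The tissue difference of BRD1 in shade was called without either coleoptile white light replicate, in the fits with more calls over all loci described above. It was also called in a fit to the shaded groups only (limma adjusted p = 0.0344), where 4005 loci were called in all, against 2164. In white light it was called without coleoptile white light replicate 1 (-0.91, limma adjusted p = 0.0173).

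D2 and BRD1 had shade differences of opposite sign with all libraries. In coleoptiles that of BRD1 ran from -0.67 to 0.17 in the fits that left out 1 library, so its sign there is not settled. The ratio of D2 to BRD1 within a library does not depend on how libraries are scaled. The ratio was chosen after the values were seen and was not tested. FPKM of D2 over that of BRD1 was 1.59 and 1.65 in shaded first leaves against 0.750 and 0.657 in white light first leaves. In coleoptiles it was 3.03 and 2.76 in shade against 1.97 and 1.34 in white light. Shade and white light did not overlap in either tissue, and the shaded first leaf fell within the range of the white light coleoptile. As a share of the summed FPKM of the 5 named P450 synthesis genes, D2 took 44.5% and 41.9% in shaded first leaves against 27.7% and 27.4% in white light first leaves. It took 63.2% and 59.5% in shaded coleoptiles against 55.4% and 43.9% in white light coleoptiles.

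**Figure D2:**
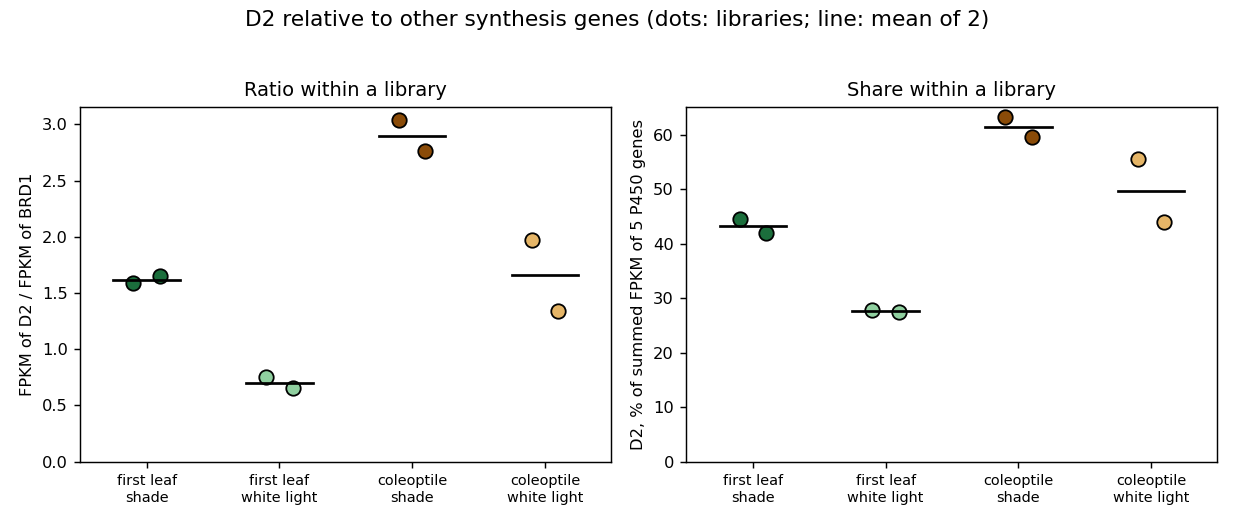
Left, FPKM of D2 divided by FPKM of BRD1 in each library; right, D2 as a percentage of the summed FPKM of CYP90B2, D11, D2, CYP90D3 and BRD1. Dots are libraries and lines the mean of 2: the ratio is 1.59 and 1.65 in shaded first leaves and 0.750 and 0.657 in white light first leaves.

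BRD2, which reduces a sterol side chain to make the precursor campesterol, was the most abundant synthesis transcript in each library, at 39.3% to 64.4% of the FPKM of the 6 named synthesis genes. It was at 94.0 and 40.2 FPKM in shaded first leaves and at 76.7 and 68.3 FPKM in white light first leaves. Coleoptile values were 79.4 and 98.7 FPKM in shade and 77.0 and 74.8 FPKM in white light. The shaded first leaf replicates were 2.34-fold apart and enclosed both white light values, and the shade differences (-0.23 ± 0.36 in first leaves, 0.22 ± 0.36 in coleoptiles) were smaller than their SE.

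BZR1 had shade differences of opposite sign in the 2 tissues, neither of which passed. This factor carries the hormone signal to its target genes. In first leaves it was at 67.6 and 60.4 FPKM in shade, above the 51.4 and 40.8 FPKM in white light (log2 difference 0.47 ± 0.25, limma adjusted p = 1.00). In coleoptiles it was at 75.3 and 58.6 FPKM in shade and at 108 and 71.5 FPKM in white light, which overlapped (-0.40 ± 0.25, limma adjusted p = 0.733). The responses of leaf and coleoptile differed by 0.87 ± 0.35 (limma adjusted p = 0.833). In white light both first leaf values of BZR1 were below both coleoptile values, a log2 difference of -0.92 ± 0.25 that did not pass (limma adjusted p = 0.0558). That difference was called without coleoptile white light replicate 2 (-1.21, limma adjusted p = 0.0113) and with equal medians (limma adjusted p = 0.0401). In shade it was -0.06 ± 0.25 (limma adjusted p = 0.925), and 0.010 with equal medians.

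Counted over the 9 genes, 0 were called for shade in first leaves, where 0% of all loci were called, and 0 in coleoptiles, where 0.0428% were. None was called for the average of the shade responses (0.0286% of loci called) or for their difference. At an unadjusted limma p under 0.05 there were 3 in first leaves (D2, BRI1 and LOC_Os07g04410), against 5.48% of loci (1152), and 3 in coleoptiles (CYP90B2, D2 and LOC_Os07g04410), against 9.91% of loci (2083). For the average there were 3 (CYP90B2, D2 and BRI1), against 10.8% of loci (2273), and for the difference of responses 2 (BZR1 and LOC_Os07g04410), against 5.58% of loci (1173). Between tissues, D2 and LOC_Os07g04410 were called in shade (2 of 9, against 10.3% of loci) and in white light (2 of 9, against 11.0% of loci). LOC_Os07g04410 passed the filter only through the groups where it was above 0, and its groups at 0 lower its spread. Its places in these counts are therefore not read as a result, and without it D2 alone was called between tissues.

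The median shade difference of the 9 was 0.04 in first leaves and -0.25 in coleoptiles, beside medians of 0.01 and 0.02 over all loci. In first leaves 5 of the 9 had positive differences and in coleoptiles 4. The libraries did not overlap for 4 genes higher in shaded first leaves (21.3% of loci) and 1 lower (18.3%). In shaded coleoptiles they did not overlap for 3 higher (17.3%) and 2 lower (15.3%).

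**Figure D3:**
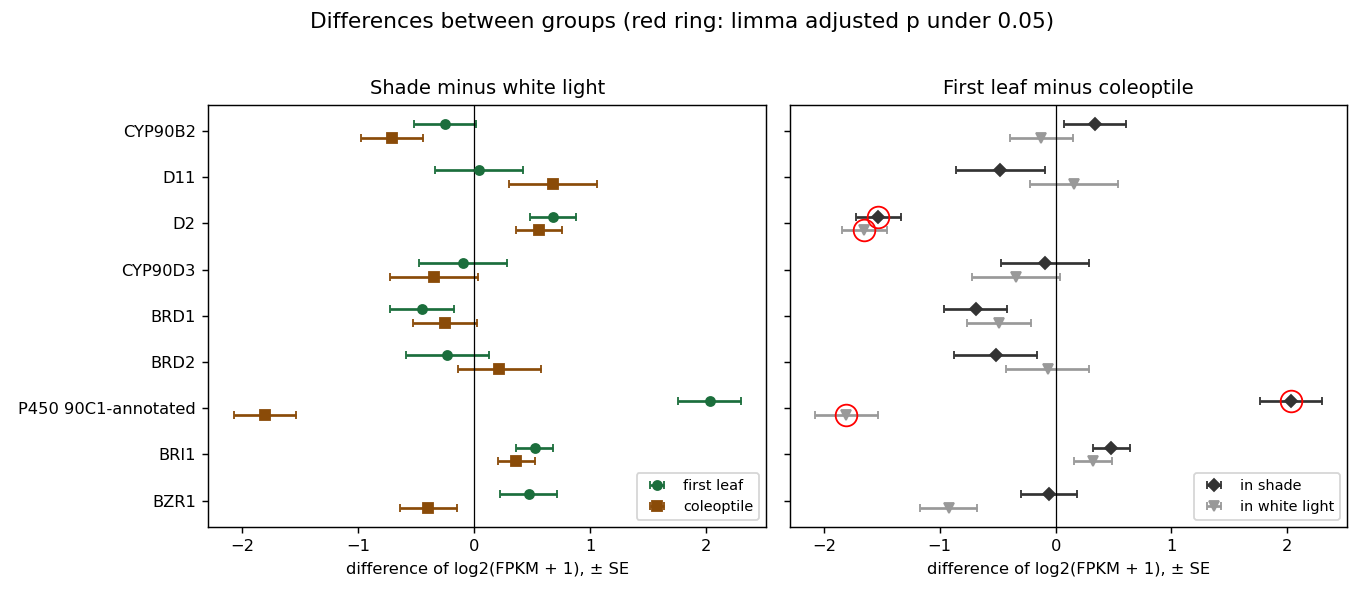
Differences of log2(FPKM + 1) with SE for the 9 genes (vertical axis), shade minus white light on the left and first leaf minus coleoptile on the right; red rings mark limma adjusted p under 0.05. D2, BRI1 and D11 lie right of 0 in both tissues on the left, D11 in first leaves by only 0.04. D2 and LOC_Os07g04410 carry the rings on the right, at -1.53 and -1.65 for D2.

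Several synthesis genes differed between the white light coleoptile replicates. Of the 6 named synthesis genes, 5 were lower in replicate 1 than in replicate 2, and 3 (D11, CYP90D3 and BRD1) were at least 1.5-fold lower. BRD2 was slightly higher in replicate 1, CYP90B2 and D2 were less than 1.5-fold lower, and LOC_Os07g04410, not counted among the 6, was higher in replicate 1 (3.29 and 1.85 FPKM). The 3 synthesis loci of the wider list were each at least 1.5-fold lower in replicate 1: LOC_Os11g04710 at 5.47 and 9.77 FPKM, LOC_Os12g04480 at 28.4 and 44.8 FPKM, and LOC_Os01g63260 at 3.49 and 7.77 FPKM. Over all tested loci 51.6% were lower in replicate 1 and 16.9% at least 1.5-fold lower. Replicate 1 is also the library with the high WRKY sum, whose part in these values was not tested.

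Other genes of the pathway were read from a list of 25 loci known from work on brassinosteroids in rice, of which 20 passed the filter. The list was assembled from general knowledge, and the loci are described by the table's annotation. None of the 20 was called for shade in first leaves, in coleoptiles, for the average or for the difference of responses. At an unadjusted p under 0.05 the limma counts were 1, 0, 1 and 0 of 20, against 5.48%, 9.91%, 10.8% and 5.58% of all loci. The median shade difference was 0.07 in first leaves and 0.01 in coleoptiles.

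Kinases of the signalling chain had no call for shade. The BRI1-associated kinase LOC_Os04g38480, of the family that pairs with the receptor, averaged 40.5 ± 1.43 FPKM in shaded and 39.1 ± 3.38 FPKM in white light first leaves, and 29.8 ± 0.783 FPKM in shaded and 29.9 ± 1.60 FPKM in white light coleoptiles (SD, n = 2). Another kinase annotated so, LOC_Os08g07760, was at 30.8 FPKM in both shaded coleoptile libraries against 24.3 and 27.4 FPKM in white light coleoptiles, without overlap (0.25 ± 0.17, limma adjusted p = 0.781). The GSK3-type kinase LOC_Os06g35530, of the class that holds BZR1 inactive until the hormone is bound, averaged 67.9 ± 0.799 FPKM in shaded and 69.9 ± 1.36 FPKM in white light first leaves (SD, n = 2). A further kinase of that class, LOC_Os01g10840, was at 41.5 and 39.7 FPKM in shaded coleoptiles against 47.1 and 53.3 FPKM in white light coleoptiles, without overlap (-0.30 ± 0.17, limma adjusted p = 0.668). The BES1/BZR1 homolog LOC_Os01g10610 had 0.44 ± 0.24 in first leaves (limma adjusted p = 1.00), and its difference between the responses of leaf and coleoptile was 0.59 (limma adjusted p = 1.00).

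The smallest shade p of the list was that of LOC_Os06g12210, annotated with a helix-loop-helix domain, in first leaves, and that of LOC_Os01g63260, annotated as a 3-oxo-5-alpha-steroid 4-dehydrogenase, in coleoptiles. LOC_Os06g12210 was at 3.43 and 3.44 FPKM in shaded first leaves against 1.08 and 1.18 FPKM in white light first leaves (log2 difference 1.06 ± 0.35, limma adjusted p = 0.707). In coleoptiles it was at 1.93 and 5.23 FPKM in shade against 2.98 and 2.22 FPKM in white light, which overlapped. Averaged over both tissues it differed by 0.66 (limma adjusted p = 0.412), and LOC_Os01g29150, described next, by 0.39 (limma adjusted p = 0.466). LOC_Os01g63260 was at 10.4 and 7.65 FPKM in shaded coleoptiles against 3.49 and 7.77 FPKM in white light coleoptiles (0.66 ± 0.32, limma adjusted p = 0.590).

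Between tissues, 2 of the 20 were called in each light, both higher in first leaves, a share near the 10.3% of all loci called in shade and the 11.0% called in white light. LOC_Os04g54900, annotated as a bHLH family protein, was at 4.06 and 2.28 FPKM in shaded first leaves and at 1.67 and 4.36 FPKM in white light first leaves, and listed at 0 in all 4 coleoptile libraries (limma adjusted p = 0.0173 in shade and 0.0199 in white light). It passed the filter only through first leaves. Its coleoptile groups show no spread between replicates, which lowers the shared spread behind these p-values. LOC_Os01g29150, annotated as cytochrome P450 72A1, was at 6.88 and 7.92 FPKM in shaded first leaves against 3.63 and 2.71 FPKM in shaded coleoptiles (1.02 ± 0.24, limma adjusted p = 0.0365). In white light it was at 5.97 and 5.16 FPKM in first leaves against 1.67 and 2.61 FPKM in coleoptiles (1.08 ± 0.24, limma adjusted p = 0.0289). Another locus of the same annotation, LOC_Os06g39880, had lower values in white light first leaves (1.70 and 1.37 FPKM) than in white light coleoptiles (11.6 and 3.34 FPKM), without passing (limma adjusted p = 0.0796). The calls were not firm. That of LOC_Os04g54900 in shade had adjusted p from 0.0596 to 0.113 in the fits without 1 shaded library, and in white light 0.106 without first leaf white light replicate 2. That of LOC_Os01g29150 ended without any 1 of the 6 libraries other than the white light coleoptiles, with adjusted p from 0.0754 to 0.235 in shade and from 0.0561 to 0.177 in white light. It also ended with no filter (0.0743 in shade and 0.0667 in white light) and in a fit to the white light groups only (0.140).

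**Figure D4:**
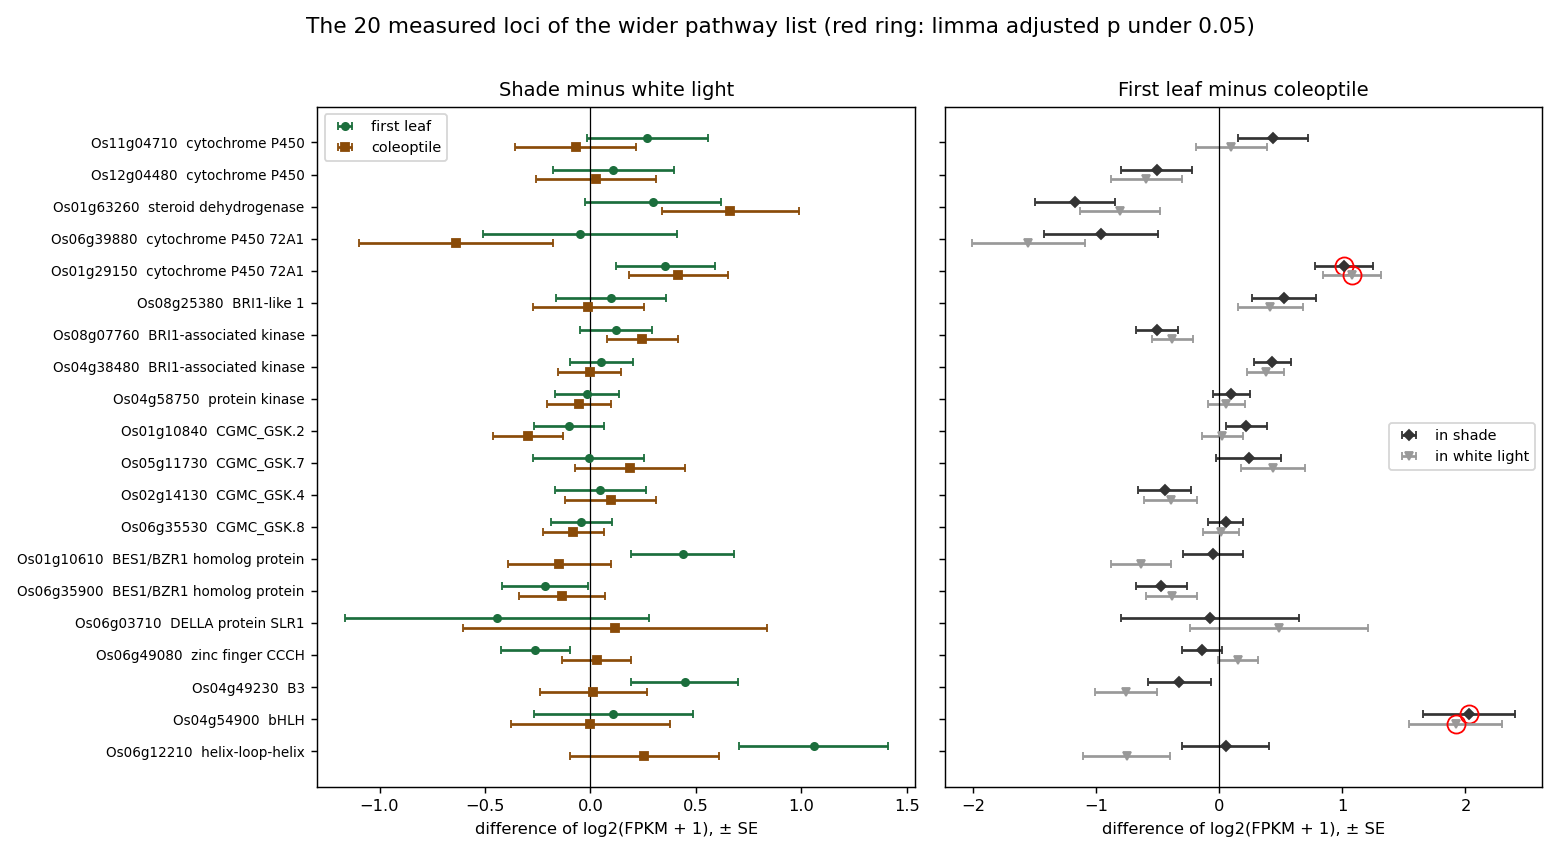
Differences of log2(FPKM + 1) with SE for the 20 measured loci of the wider pathway list (vertical axis, with the table's annotation shortened), shade minus white light on the left and first leaf minus coleoptile on the right. Red rings mark limma adjusted p under 0.05: only LOC_Os01g29150 and LOC_Os04g54900 carry them, both right of 0 in the tissue comparison.

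For each gene the closest patterns among annotated loci were found by Pearson's r of log2(FPKM + 1) over the 8 libraries, as a description. The 8 points of each r are 4 groups of 2 replicates. The best were taken from the many loci among the 21014 whose annotation names a function, so closer loci without one may exist. For D2 they were a receptor-type serine/threonine kinase (LOC_Os05g07300, r = 0.993) and a versicolorin reductase (LOC_Os06g08600, r = 0.986). LOC_Os06g08600 was at 3.91 and 3.63 FPKM in shaded first leaves and 1.24 and 1.82 FPKM in white light first leaves, and at 23.3 and 20.4 FPKM in shaded coleoptiles and 9.39 and 10.6 FPKM in white light coleoptiles. For LOC_Os07g04410 they were LOC_Os07g29200, annotated as a mycolic acid methyl transferase (r = 0.990), and LOC_Os05g48800, a drought induced 19 protein (r = 0.953). LOC_Os07g29200 was never at 0. It was at 8.81 and 9.12 FPKM in shaded first leaves against 4.50 and 4.16 FPKM in white light first leaves, and at 4.09 and 4.49 FPKM in shaded coleoptiles against 8.44 and 7.07 FPKM in white light coleoptiles. For BRI1 they were a chloride channel protein (LOC_Os08g20570, r = 0.977) and LOC_Os10g35240 (r = 0.975), and for BRD1 an iron-sulfur cluster protein (LOC_Os03g61960, r = 0.972) and an activator of heat shock protein ATPase (LOC_Os06g49030, r = 0.971). For CYP90B2, D11, CYP90D3, BRD2 and BZR1 the 2 closest loci had r from 0.948 to 0.979.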

How the data were processed

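Messenger RNA of 8 libraries was read in pairs of 150 bp, per the labels. The authors deposited 1 table of FPKM values per locus and library. The submitters' processing notes name, with no role or order, Cufflinks 2.2.1 with its programs Cuffnorm 2.2.1 and Cuffdiff 2.2.1, the aligners TopHat2 2.0.14 and Bowtie2 2.2.3, and the read tools FastQC 0.11.2, Trim Galore 0.3.7 and bcl2fastq 2.16.0.10. The genome build is not given in the sources used here, so no coordinates are printed. The RefSeq gene table carries none of these locus identifiers.

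Because FPKM are not counts, log2(FPKM + 1) was tested with limma 3.58.1 in R 4.3.3, with an intensity trend, on loci averaging 1 FPKM or more. The fit of 4 group means had 4 residual and 3.26 prior degrees of freedom, and 6 contrasts were made. Replicate numbers were not taken to pair samples. Members, lists and tests were chosen with earlier results of these data known. Named loci were all 9 members, called loci of the pathway list or else its 2 smallest p-values per contrast, and the 2 closest patterns per member. Levels of signalling kinases, LOC_Os06g39880 and the D2 to BRD1 ratio were added after their values were seen, as were the loci in the closing observations. Alternatives were a pseudocount of 0.1, no filter, a mean of at least 5 FPKM, equal medians, quantile normalization, fits to the compared groups only, a replicate block and leaving out each library.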

Additional observations from a re-analysis of the deposited data

How the results depend on the processing

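With equal medians the median of all loci for shade in first leaves moved to 0.14, so differences there are read against it. Of the 9 genes, 1 was called for the difference of the shade responses with no filter, with equal medians and with quantile normalization, against 0 as reported. Between tissues in white light 1 was called at a mean of at least 5 FPKM and 1 in a fit to the compared groups only, against 2. Between tissues in shade 1 was called at that mean, against 2. That filter removed LOC_Os07g04410 and CYP90B2. Of the wider list, the count between tissues in white light was 1 with no filter, 0 at a mean of at least 5 FPKM and 0 in a fit to the compared groups only, and in shade it was 0 and 4 under the last 2, against 2 in each. Over all loci the white light count was 1927 with no filter, 1714 at that mean and 527 in that fit, against 2303. In shade it was 1569 at that mean and 4005 in that fit, against 2164. For the difference of responses it was 39 with no filter, 5 with equal medians and 5 with quantile normalization, against 4.

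The labels do not say whether replicate numbers pair the samples. Deviations of same-numbered libraries correlated at r = -0.148 to 0.0854 over 6 pairs of groups. With 2 libraries a group this cannot settle the question. With a replicate block the wider list had 1 call between tissues in white light and 1 in shade, that of LOC_Os01g29150 being lost (limma adjusted p = 0.05004 and 0.0620), and BZR1 was called between tissues in white light (limma adjusted p = 0.0252).

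Without 1 library, calls among the 9 genes and the wider list changed with the library left out, as did calls over all loci. Their counts are therefore not read as a result about these genes. Signs turned within these ranges without 1 library: for shade in first leaves D11 (-0.085 to 0.17), CYP90D3 (-0.37 to 0.17) and BRD2 (-0.83 to 0.37), and in coleoptiles CYP90D3 (-0.89 to 0.20) and BRD1 (-0.67 to 0.17). For the difference of responses these were D11 (-1.27 to 0.0047) and D2 (-0.090 to 0.33). Between tissues in white light they were CYP90B2 (-0.33 to 0.082), D11 (-0.48 to 0.80), CYP90D3 (-0.88 to 0.20) and BRD2 (-0.15 to 0.015), and in shade CYP90D3 (-0.37 to 0.18), BRD2 (-1.12 to 0.086) and BZR1 (-0.23 to 0.12). With equal medians CYP90D3 turned to 0.035 for shade in first leaves and BZR1 to 0.010 between tissues in shade, and with quantile normalization BRD2 turned to 0.093 between tissues in white light. Beyond the alternatives named, the cause of each shift was not tested. With 2 libraries a group and no counts, depth cannot be weighed.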

Other observations

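The 5 loci of the wider pathway list under the filter were LOC_Os02g11020 and LOC_Os07g45290, annotated as cytochrome P450 72A1, the BRI1-like kinase LOC_Os09g12240, the BES1/BZR1 homolog LOC_Os02g13900 and LOC_Os04g56500, an expressed protein. LOC_Os09g12240 was at 0.514 and 0.373 FPKM in shaded first leaves, 0.331 and 0.446 FPKM in white light first leaves, 1.21 and 1.24 FPKM in shaded coleoptiles and 0.946 and 1.15 FPKM in white light coleoptiles, so its coleoptile values lay above all first leaf values. LOC_Os02g11020 was at most 0.494 FPKM in first leaves, below all 4 coleoptile libraries (0.678 to 2.11 FPKM). The other BRI1-like kinase of the list, LOC_Os08g25380, had the opposite order, at 1.80 to 2.53 FPKM in first leaves and 0.848 to 1.67 FPKM in coleoptiles.

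The loci next to LOC_Os07g04410 in the order of identifiers did not share its values. LOC_Os07g04400 was between 0 and 1.33 FPKM and LOC_Os07g04420 between 0 and 0.365 FPKM over the 8 libraries. LOC_Os04g54610, the other locus with the same pattern of zeros, was at 2.64 and 3.41 FPKM in shaded first leaves and at 32.6 and 4.61 FPKM in white light coleoptiles, a wider replicate spread than that of LOC_Os07g04410.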
